A study of Mus musculus with 32 samples.

Results

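Malat1, Neat1, Meg3, Rian, Mirg, Miat, Snhg11, Snhg1 and Gas5 are 9 long noncoding RNAs known from brain cells, and their levels are described here in single cells and small pools of cells of the mouse subventricular zone. They were chosen by gene symbol, and are 9 of the 38740 symbols and 10 of the 39011 lines of the deposited expression table. Rian has 2 lines, which were summed. The subventricular zone is a neurogenic zone of the forebrain. RNA was profiled there at postnatal day 21 in 28 libraries made from 1 cell each (S1 to S28) and in 4 libraries made from pools of 10 cells (P1 to P4). No genotype, strain, treatment, sort or animal is given in the labels for either group. The cells therefore stood as 1 sample of cells, no p-value was made from them, and the 4 pools have a spread that may be technical. Levels are FPKM, sequenced fragments scaled to transcript length and to the mapped fragments of the library, so that different genes can be set side by side per length. A gene is called found at FPKM of at least 1.

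Long noncoding RNAs are transcribed like messenger RNAs but make no protein, and they act as RNA or carry smaller RNAs. Malat1 is an abundant nuclear RNA that collects in nuclear speckles with splicing factors, and Neat1 is the scaffold of another nuclear body, the paraspeckle. Meg3, Rian and Mirg lie one after the other in the imprinted Dlk1-Dio3 domain, where they are made from the maternal chromosome, and Rian and Mirg carry many small RNAs in their introns. Miat, also called Gomafu, is a nuclear RNA of neurons and retinal cells. Gas5, Snhg1 and Snhg11 are host genes, in whose introns small nucleolar RNAs (snoRNAs) are encoded. C/D box snoRNAs guide the methylation of ribosomal RNA, and the spliced exons of Gas5 and Snhg1 are turned over by nonsense-mediated decay.

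The small RNAs inside these genes are lines of the table in their own right, and the 2 snoRNAs with the highest values in each of Gas5 and Snhg1 are shown because their levels are set beside those of their hosts further on. The sequences were read from the GRCm38 genome at the positions of the GENCODE M21 annotation, 5′ to 3′ on the plus strand. Capitals mark TGATGA, the core of the C box, and CTGA, the D box, wherever these letters occur on the strand of the snoRNA. The first 2 lie in Gas5 at chr1:161036682-161036741 and chr1:161038082-161038158. The last 2 lie in Snhg1 at chr19:8725341-8725409 and chr19:8725866-8725991.
Gm23212: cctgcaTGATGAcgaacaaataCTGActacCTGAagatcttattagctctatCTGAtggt
Snord47: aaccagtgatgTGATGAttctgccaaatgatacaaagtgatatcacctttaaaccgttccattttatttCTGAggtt
Gm22680: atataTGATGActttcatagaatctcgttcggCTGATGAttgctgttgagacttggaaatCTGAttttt
Snord22: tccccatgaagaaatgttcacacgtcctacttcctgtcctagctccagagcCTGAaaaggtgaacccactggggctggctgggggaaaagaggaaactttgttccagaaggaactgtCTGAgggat
Both motifs were present in 7 of the 9 snoRNA lines of Gas5 and in 6 of the 8 of Snhg1, against 25.2% of all 1507 snoRNA transcripts of the annotation. The 1507 were not split by class and include snoRNAs other than C/D box ones, so they are an unlike background. CTGA alone was present in 79.5% of them. Snord22 held CTGA and not TGATGA.

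MicroRNAs take the same place in the imprinted members. The mature sequences below come from RefSeq (GRCm38.p6), with the seed, bases 2 to 8, in capitals. The first lies in Meg3 and is shown because its precursor had values in these libraries. The others lie in Mirg, whose 14 microRNA genes give 26 mature sequences with 25 different seeds, and the pair miR-453 and miR-496a-5p is shown because only these share a seed.
mmu-miR-1906: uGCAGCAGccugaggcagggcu
mmu-miR-134-5p: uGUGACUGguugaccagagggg
mmu-miR-410-3p: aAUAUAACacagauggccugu
mmu-miR-453: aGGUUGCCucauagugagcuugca
mmu-miR-496a-5p: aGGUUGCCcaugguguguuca

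The libraries differed in kind before any of the 9 RNAs was considered. Single cells had 2107 to 10169 genes found (median 4986), and pools had 10478 to 12870. By marker lists, endothelial genes led 8 cells, neuroblast genes 7, microglial genes 4, oligodendrocyte and ependymal genes 3 each, astrocyte genes 2 and choroid plexus genes 1. No cell was led by mature neuron, pericyte, oligodendrocyte precursor or neural stem cell genes. All cells led by microglial or neuroblast genes lay in S18 to S22 or S23 to S28, so cell type and library set cannot be told apart there. These are 2 sets of libraries that shared low-level values. Symbols with their highest value of at least 100 FPKM in 1 library of the set were above 0 in another for 97.6% to 99.7% of symbols in S18 to S22, at a median of 0.101% to 1.44% of the highest value. In S23 to S28 these ranges were 95.4% to 99.7%, and 0.154% to 1.45%, while among S1 to S5 the share above 0 was 46.5% to 97.7%. Results for the 9 RNAs that rest on these 11 cells are therefore also given without them, or with a gene put at 0 in each library that holds under 2% of the level of the highest one in its set, which is called the 2% limit. With this limit S21, led by microglial genes in the deposited values, was led by neuroblast genes, and the leading list of the other 10 cells stayed as it was. Small RNAs made up 36.1% to 48.5% of the FPKM in S23 to S28, 2.59% to 16.2% in S18 to S22 and 9.89% to 47.2% in S1 to S17.

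A single cell held few of the 9 RNAs. The number found per cell was 2 to 6 with a median of 3, both in the 28 cells and in S1 to S17 alone, and pools held 4, 5, 6 or 7. Malat1 and Gas5 were the only members found in at least 14 cells. Among all symbols 9.18% were found in at least 14 cells, and among the 4159 long noncoding RNA symbols of the annotation 2% were. The remaining members were present in minorities of cells that differed from gene to gene, as the heatmap shows.

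**Figure D1:**
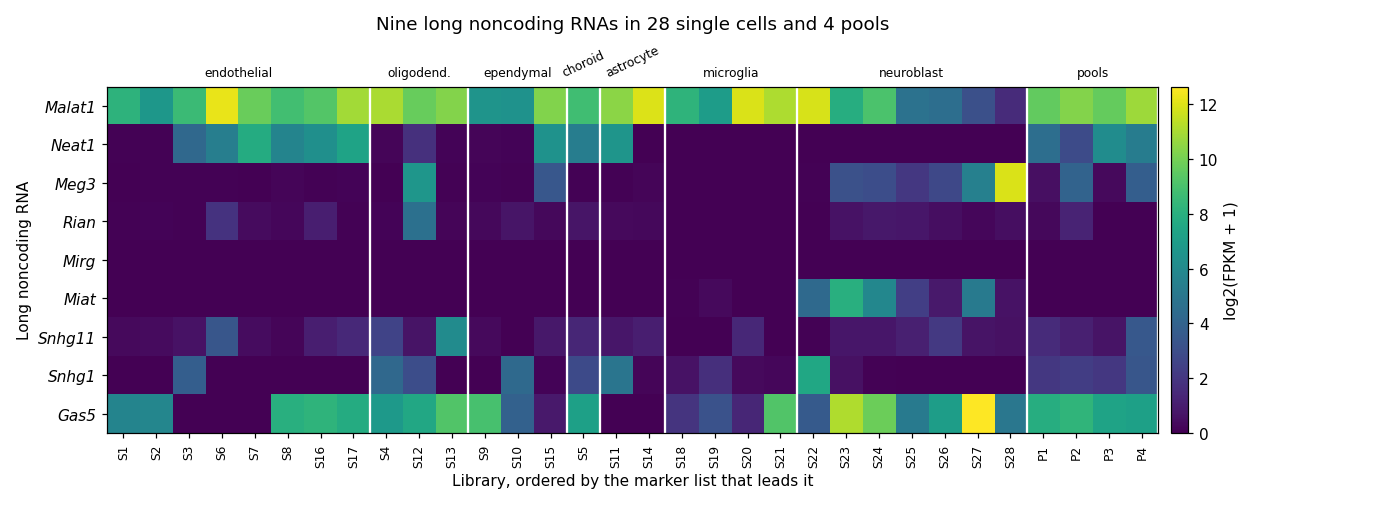
Level of each of the 9 RNAs (rows) as log2(FPKM + 1), by colour, in each library (columns), with cells placed under the marker list that leads them and the pools at the right. Malat1 is bright in nearly every column, Neat1 in endothelial-led cells among others, Miat only in neuroblast-led cells, and Mirg nowhere.

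Malat1 (chr19:5795690-5802672, minus strand, GRCm38) was found in all 28 cells and in all pools. Only 0.325% of symbols were found in every cell. In S1 to S17 the level ran from 87.6 FPKM in S10 through a median of 828 to 4731 in S6. In S18 to S22 it was 303, 126, 3952, 2204 and 3796 FPKM, in the order of the cells. S23 to S28 had 234, 534, 25.9, 22.7, 7.39 and 1.98 FPKM. The last 4 of these are the 4 lowest values of all 28 cells, while S23 and S24 lie within the range of the other cells. The pools had 792, 1282, 802 and 1772 FPKM, a mean of 1162 ± 466 (SD, n = 4).

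Cells led by the same marker list differed widely in Malat1. The 8 endothelial-led cells ran from 102 to 4731 FPKM with a median of 531, the 3 oligodendrocyte-led cells had 2084, 828 and 1244, and the 3 ependymal-led cells 92.3, 87.6 and 1235. The neuroblast-led cell S22, which belongs to the other library set, had 3796 FPKM and the neuroblast-led S28 had 1.98, so that the 7 neuroblast-led cells hold the fourth highest and the lowest value. Malat1 was the 19th most abundant symbol in S6 and the 2942nd in S28. Its rank was 36 to 144 in the pools. The lower median of S23 to S28 held when every library was rescaled to the same sum over symbols other than small RNAs: the medians were then 26.4 FPKM in S23 to S28, 818 in S1 to S17 and 1102 in the pools. Under the 2% limit S27 and S28 were put at 0.

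**Figure D2:**
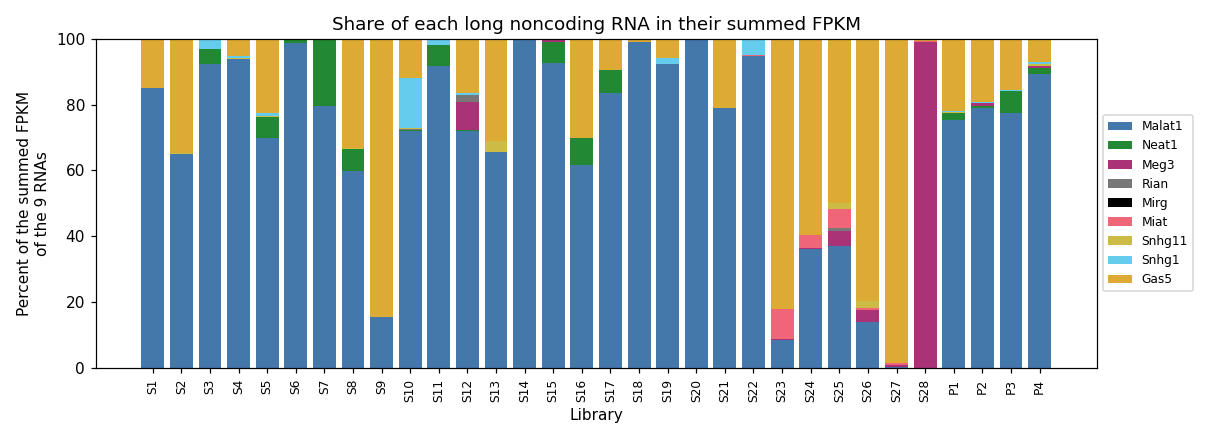
Share of each RNA in the summed FPKM of the 9, as stacked bars in percent per library. Malat1 is the largest share except in S9 and S23 to S27, where Gas5 leads, and in S28, where Meg3 holds nearly all.

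Neat1 (chr19:5824708-5845478, minus strand) was found in 10 cells, or 35.7% (95% Clopper-Pearson interval 18.6% to 55.9%, counting error only), and in all 4 pools. All 10 lay in S1 to S17. S7 had 219 FPKM, S17 160.1, S11 96.7, S15 86.5, S16 78.9, S8 51.0, S6 41.9, S5 39.9, S3 18.1 and S12 2.40. These include 6 of the 8 endothelial-led cells, the choroid plexus-led cell, and 1 cell each of the ependymal-led, astrocyte-led and oligodendrocyte-led cells. The other 7 cells of S1 to S17 had 0.0170 to 0.140 FPKM, so that the found cells other than S12 and the remaining cells were far apart. Every cell of S18 to S28 was at 0.0192 FPKM or below. Of the 4704 symbols found in at least 9 of S1 to S17, 12.8% were likewise under 1 in all of S18 to S28, so this is a common pattern between the sets. The pools had 23.2, 6.29, 70.7 and 39.2 FPKM, with the highest in the endothelial-led P3 and the lowest in the endothelial-led P2.

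Meg3 (chr12:109541001-109571726, plus strand) was found in 8 cells, or 28.6% (13.2% to 48.7%), and 1 cell dominated it. S28 had 3926 FPKM, which is 95.7% of the sum over the 28 cells. Among symbols found in at least 5 cells, 2.32% had 90% or more of their sum in 1 cell. S12, led by oligodendrocyte genes, had 98.3 FPKM and S15, led by ependymal genes, 9.95. S23 to S27 had 7.68, 7.05, 3.16, 5.58 and 44.7 FPKM, which is 0.0804% to 1.14% of the value in S28, so that all 5 are under the 2% limit, and with it Meg3 was found in S12, S15 and S28. The other 15 cells of S1 to S17 lay at 0.0251 to 0.136 FPKM, and S18 to S22 at 0.0530 or below. In the pools Meg3 was 0.441, 15.3, 0.243 and 12.7 FPKM, so it was found in P2 and P4, and P1 and P3 were above 0 but under FPKM of 1.

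S28 is a neuroblast-led cell, with 13 of 14 neuroblast markers found and 1 of 11 mature neuron markers. Under the 2% limit 8 of the 14 and 1 of the 11 were found in it. Dcx, the microtubule protein of migrating neuroblasts, was 383 FPKM in it, and Snap25, a synaptic protein, was 88.0. S26, the cell with the highest Dcx at 564 FPKM, had 5.58 of Meg3. A second copy of the gene, named MEG3 and placed on a patch scaffold of the assembly, is a line of its own outside the symbol Meg3. It was found in the same 8 cells, at 1581 FPKM in S28, 7.16 in S12 and 2.23 in S15, and held 28.7% of the sum of the lines Meg3 and MEG3 in S28. Gm26906, annotated on the opposite strand inside the end of Meg3, had 541 FPKM in S28, 15.6 in S12 and 22.1 in S15. The strand setting of the counting is not given in the sources used here, so the reads of Meg3 and Gm26906 cannot be told apart.

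Rian and Mirg, the next genes of the imprinted domain, did not reach the high values of Meg3. Rian (chr12:109603940-109661716, plus strand) was found in 3 cells, at 24.5 FPKM in S12, 2.63 in S6 and 1.11 in S16, and in P2 at 1.414 FPKM. The chromosome line and the patch line held near-equal values, 12.2 FPKM each in S12, and the patch line made up 50.03% of their sum over the cells. With the higher line in place of the sum, S16 and P2 no longer reached FPKM of 1. S28, the cell with 3926 FPKM of Meg3, had 0.392 FPKM of Rian, while S12 had both. Over the 28 cells the median was 0.193 FPKM for Rian, as the sum of 2 lines, and 0.0652 for Meg3 without its patch line. With this sum Rian lay above Meg3 in 13 of the 17 cells of S1 to S17. The chromosome line of Rian alone lay below Meg3 in S8 (0.0856), S9 (0.0964), S13 (0.0547) and S14 (0.0961). Meg3 was 0.110, 0.108, 0.0622 and 0.136 FPKM there, far under FPKM of 1. The higher mean of Meg3 comes from few cells, with 95.7% of its sum in S28. S18 to S22 were listed at 0 for Rian.

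Mirg (chr12:109729764-109749460, plus strand) was listed at 0 in all 32 libraries, as were the 14 microRNA lines inside it, among them those of the sequences shown above. Of all 1886 microRNA lines of the table only 25.2% were above 0. Of all symbols, 40.9% were listed at 0 throughout and 51.3% were found in no cell, and of the annotated long noncoding RNA symbols 50.8% and 66.8%. For 0 of 28 cells the exact Clopper-Pearson interval reaches 12.3%, and the simpler limit of 3 counts of the total is 10.7%. An exact 0 in this table can also be a failed estimate, since the mitochondrial genes mt-Co1 and mt-Nd1 were listed at 0 in all 32 libraries as well. The 4 protein-coding genes of the domain were not found in any cell or pool either: Dlk1 and Dio3 were listed at 0 throughout, Rtl1 reached 0.00455 FPKM in S5, and Begain 0.539 in S25.

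Miat (chr5:112213228-112229395, minus strand) was found in 5 cells, or 17.9% (6.06% to 36.9%), and all 5 were led by neuroblast genes. S23 had 252 FPKM, S24 57.8, S27 35.4, S22 19.2 and S25 4.06. The other 2 neuroblast-led cells, S26 and S28, had 0.819 and 0.542. In the 7 neuroblast-led cells 9 to 13 of 14 neuroblast markers were found, at a mean log2(FPKM + 1) of 4.19 to 6.42, and 3 to 11 of 12 microglial markers, at a mean of 0.89 to 3.08. Under the 2% limit 6 to 11 neuroblast markers, at a mean of 3.55 to 6.25, and 0 to 3 microglial markers, at a mean of 0 to 2.60, were found in these cells. The part of the microglial signal in these values was not tested. The microglia-led S18 to S21 had 0.0553, 0.242, 0.0308 and 0.0193 FPKM, which is 0.1004% to 1.26% of the value in S22. Miat was listed at 0 in each of S1 to S17 and in P1 to P3, and P4 had 0.00586 FPKM. Under the 2% limit S22, S23, S24 and S27 keep it, and S21, then led by neuroblast genes, is at 0. Of the 3459 symbols found in at least 5 of S18 to S28, 1.56% were listed at 0 in all of S1 to S17, and 1.71% of the 2567 left without small RNAs and pseudogenes. With no neuroblast-led cell outside the 2 sets, and none of the pools led by neuroblast genes, the absence of Miat elsewhere cannot be told apart from the library set.

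Of 8473 genes ranked, those whose pattern was most like Miat over the 28 cells were Dlx5 (Spearman correlation 0.98), Dlx1 (0.97) and Ube2ql1 (0.97). Dlx5 and Dlx1 encode homeobox factors of GABAergic neuroblasts. All 3 were found in no cell of S1 to S17, so these correlations rest on the split between the sets. Dlx6os1, a long noncoding RNA of the Dlx locus, was found in all 11 cells of S18 to S28, at 1.75 to 1302 FPKM, and was listed at 0 in all other cells and in all pools. Under the 2% limit S18, S19 and S20 drop out and 8 cells keep Dlx6os1, at 27.98 FPKM or more. With that limit Dlx1 was found in 9 cells instead of 11, Dlx5 in 5 instead of 9 and Ube2ql1 in 3 instead of 9.

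**Figure D3:**
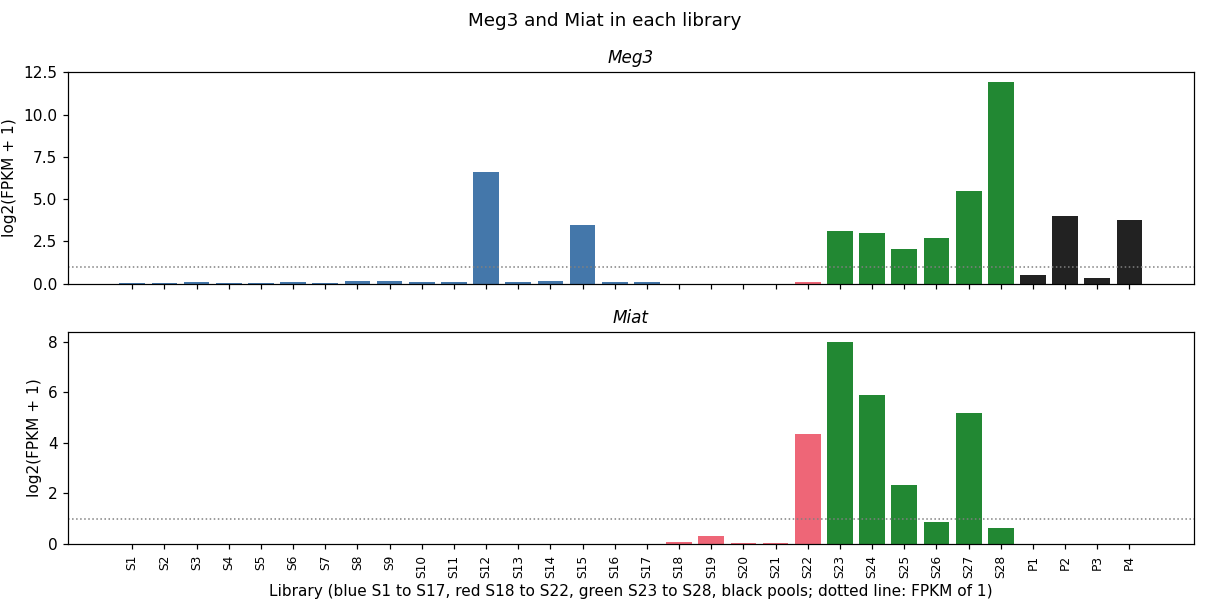
Level of Meg3 (top) and Miat (bottom) as log2(FPKM + 1) in each library, with bars coloured by library set. Meg3 stands above the dotted line at FPKM of 1 in S12, S15, S23 to S28, P2 and P4, and Miat only in S22 to S25 and S27.

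Gas5 (chr1:161034422-161038539, plus strand) was the second most widespread member, found in 22 cells, or 78.6% (59.0% to 91.7%), and in all pools. In S1 to S17 the highest values were 588 FPKM in S13, 505 in S9 and 297 in S16, and the median was 55.01. S3, S6, S7, S11 and S14 were listed at 0, and S15 had 0.830. In S18 to S22 the values were 2.70, 7.96, 1.55, 591 and 10.96 FPKM. S21 alone is high there, and the other 4 cells are at 0.262% to 1.85% of it. S23 to S28 had 2268, 881, 35.0, 129, 6419 and 31.1 FPKM. The 3 highest values of all cells are in this set, in S27, S23 and S24, and S25 and S28 fall under the 2% limit. With that limit 16 cells hold Gas5.

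The pools had 232, 311, 159.8 and 142 FPKM of Gas5, a mean of 211 ± 76.9 (SD, n = 4). They thus lay closer together than single cells, which ran from 0 to 6419. In the cells with a value of 0, Malat1 was 387, 4731, 860.2, 1408 and 4097 FPKM, so both astrocyte-led cells and 3 endothelial-led cells had Malat1 without Gas5.

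Snhg1 (chr19:8723496-8726442) was found in 8 cells, or 28.6% (13.2% to 48.7%). S22 had 184 FPKM, S11 28.7, S10 18.8, S4 18.2, S3 12.7, S12 7.05, S5 6.15 and S19 2.24. The value in S19 is 1.21% of that in S22. The cells belong to 7 different leading lists, and no list had it in all of its cells other than the single choroid plexus-led cell. S1, S2, S7, S8 and S13 were listed at 0, and the other cells were at 0.521 FPKM or below. The pools had 3.10, 3.99, 3.09 and 9.57 FPKM, so every pool had it at a low level. Over S1 to S17 Snhg1 had a Spearman correlation of 0.61 with the number of genes found in the cell.

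Snhg11 (chr2:158375638-158386145, plus strand), annotated as protein-coding in GENCODE M21, was above 0 in every library but low in most. It was found in 10 cells, or 35.7% (18.6% to 55.9%), with 66.9 FPKM in the oligodendrocyte-led S13, 9.51 in S6, 4.75 in S4 and 1.07 to 3.34 in the other 7. S13 held 67.4% of the sum over the cells. The pools had 1.97, 1.19, 0.575 and 10.2 FPKM, the highest in the oligodendrocyte-led P4. At a limit of 0.1 FPKM it would be counted in 23 cells, and at 5 FPKM in 2.

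**Figure D4:**
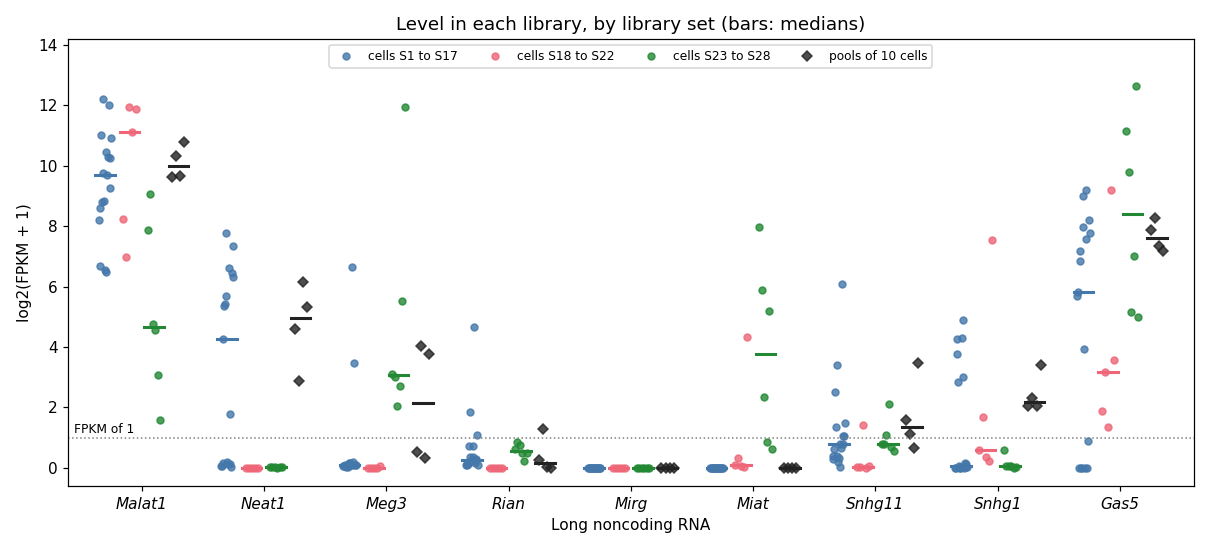
Level of each RNA as log2(FPKM + 1) in every library, as 1 point per library, grouped by library set, with bars at the medians and a dotted line at FPKM of 1. Malat1 and Gas5 are spread over the whole range in cells and narrow in pools, and Miat is above the line only in S18 to S22 and S23 to S28.

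The order of levels was clear at the top only. In the pools, Malat1 (mean 1162 FPKM) lay above Gas5 (211), and Gas5 above Neat1 (34.8), with ranges that did not overlap. Below these, Meg3 (7.19), Snhg1 (4.94), Snhg11 (3.48), Rian (0.408), Miat (0.00146) and Mirg each overlapped the range of its neighbour, as did Neat1 and Meg3. By the median over the 28 cells, Malat1 (492 FPKM) and Gas5 (53.0) came first again and the other 7 members were below FPKM of 1. In S1 to S17 the median of Neat1 was 18.1 FPKM.

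Each long noncoding RNA was next set beside the small RNA lines that overlap it. There are 9 such lines in Gas5, 8 in Snhg1, 2 in Snhg11, 1 in Malat1, 3 in Neat1, 4 in Meg3, 36 in Rian (18 on the chromosome and 18 on the patch), 14 in Mirg and 4 in Miat. A small RNA line was found in 21 pairs of member and library, of which 11 were in Gas5, 4 in Snhg1, 3 in Neat1 and 3 in Meg3. The host was also found in all 21, and the small RNA stood above its host in 17. All 9 lines in Gas5, all 8 in Snhg1, all 3 in Neat1 and 3 of the 4 in Meg3 lie inside an annotated exon of the host. Host and small RNA lines may therefore share reads, which was not tested. With the 2% limit on hosts and small RNA lines, chosen after the data were seen, 20 pairs had a small RNA found and 17 of these had the host found. The 3 others were Mir1906-1 in S23, S24 and S26, where Meg3 is put at 0. In the deposited values, in no library with a member listed at 0 was an overlapping small RNA line found or even above 0. In the libraries where Gas5 and Snhg1 were listed at 0, therefore, no signal appeared on the small RNA lines in their place. A failed estimate that leaves both lines at 0 would look the same and was not tested.

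Small RNA lines within Gas5 had the highest values. Gm23212, whose sequence is shown above, was 13357 FPKM in S27, 5789 in S16, 5534 in S17, 1292 in S8, 415 in S23, 1659.9 in P1 and 613 in P4. Snord47 was 23858 FPKM in S27, 65.1 in S23 and 33.3 in S25, and listed at 0 in all of S1 to S17. S27 is thus the highest cell of Gas5 and of both snoRNA lines. In S16 and S17 Gm23212 stood above Gas5, which was 297 and 217 FPKM there, and in S23 it stood below Gas5 at 2268. Across the 11 libraries the highest snoRNA line was 0.00439 to 25.5 times its host. These lines are 60 to 84 bases long, and how their effective length was set is not given in the sources used here, so the ratio is no ratio of molecules.

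In Snhg1, Snord22 was 1059 FPKM in S4, 426 in S11, 214 in S5 and 306 in P4, and the highest line was 14.8 to 58.3 times the host. Gm22680 was 370.4 FPKM in S11 and 203 in S5. S22, with the highest Snhg1 at 184 FPKM, had no snoRNA line of the gene found. Both snoRNA lines of Snhg11 were listed at 0 in every library.

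The nuclear and imprinted members had fewer such signals. NEAT1_2, a line of 110 bases inside an exon of Neat1, was 1767 FPKM in S6 and 645 in S8, where Neat1 was 41.9 and 51.0. S7 and S17, which had the highest Neat1, had no value on any of its 3 short lines. Mir1906-1, the precursor line of the microRNA shown above, was 71.5 FPKM in S23, 153 in S24 and 53.7 in S26, where Meg3 was 7.68, 7.05 and 5.58, and it was not found in S28, where Meg3 was 3926. The short line MALAT1 inside Malat1, the 4 lines in Miat and the 36 in Rian did not reach FPKM of 1 anywhere. Gm20417, a line of 988 bases inside Malat1 that is not in GENCODE M21, was found in 10 cells at 1.27 to 24.7 FPKM and in all 4 pools.

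**Figure D5:**
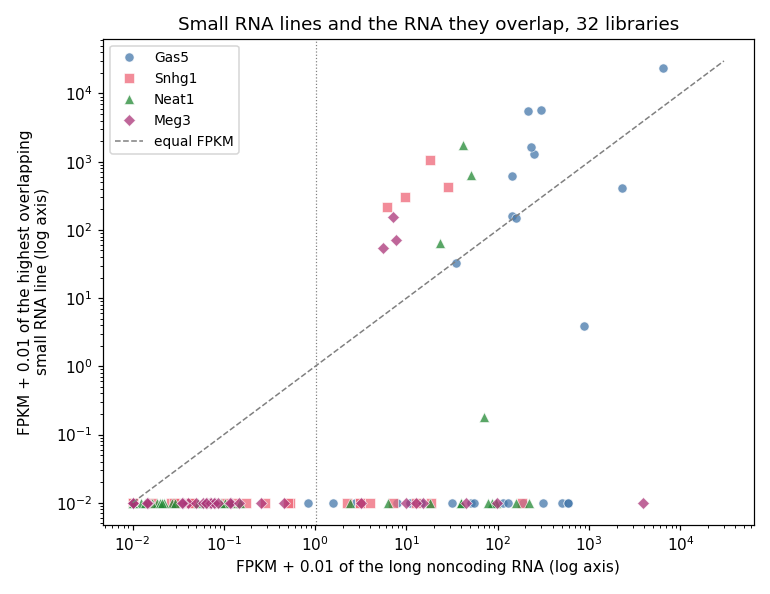
FPKM + 0.01 of Gas5, Snhg1, Neat1 and Meg3 in each of 32 libraries (x, log axis) against FPKM + 0.01 of the highest small RNA line that overlaps it (y, log axis), with a dashed line at equal FPKM and a dotted line at FPKM of 1. All points high on the y axis lie to the right of the dotted line, and 17 of the 21 pairs with a found small RNA lie above the dashed line.

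Pools and cells were compared by log2((mean FPKM of the pools + 1)/(mean FPKM of the cells + 1)), on which changes of low genes appear too small, and no test was made. Of the members 3 were past 2-fold, Meg3 at -4.17 (SD over pools 2.016, n = 4), Miat at -3.83 and Gas5 at -1.11 (SD 0.51), all lower in the pools with this mean. That is 3 of the 8 members with a value above 0, while of the 22895 symbols above 0 in a library, 23.1% were past 2-fold in either direction and 12% were past 2-fold lower and 11.1% higher in the pools. Among the 14749 symbols with a mean FPKM of at least 1 these shares were 30.7%, 18.6% and 12.1%. The median over the 8 members was -0.77 and over all symbols 0.03. Malat1 (0.02, SD 0.56), Snhg11 (-0.02, SD 1.24) and Neat1 (0.29, SD 1.40) were within their spread over the pools with this mean and scaling, Snhg1 was -0.89 (SD 0.65) and Rian -0.66 (SD 0.60). In pooled cells, fewer cells of a type and less RNA per cell cannot be told apart.

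The 3 lower values rested on cells of the 2 library sets. Against S1 to S17 alone, Meg3 was 0.14 and Gas5 0.56, so both turned direction, as did Neat1 at -0.42 and Malat1 at -0.08. Miat was then 0.0021 with all 17 cells at 0, and Rian at -1.01 was the 1 member past 2-fold. With means of log values in place of the log of the means, none of the members was past 2-fold lower, and 4 were past 2-fold higher in the pools: Neat1 (2.67), Gas5 (2.30), Malat1 (1.49) and Snhg1 (1.21). Meg3 (0.74) and Snhg11 (0.68) turned direction as well in that setting, in which the median of all symbols was 0.73. The share of all symbols past 2-fold was not computed for this or the other alternative settings. The counts of members there are therefore no result about the members. With upper quartile scaling Malat1 was -1.54 and Snhg1 -3.07, both past 2-fold lower. The direction between pools and cells thus changed with the mean, the scaling, the cells or the pools used for each member with a value above 0 other than Rian and Miat. For Miat the sign of 0.0021 was fixed in advance, since all 17 cells were at 0 and P4 was above 0. Miat was lower in the pools in all other settings. Gas5 was no longer past 2-fold at -0.73, when libraries were rescaled over symbols other than small RNAs, at -0.998 without P3 and at -0.96 without P4. Without P4 Snhg1 was -1.32 and Snhg11 -1.02, and without P2 Rian was -1.05. For Meg3 the mean over the cells, 147 FPKM, was set by S28, and the median cell had 0.0652 FPKM.

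Patterns across cells were then compared between genes, as Spearman correlations over cells that share library sets and depth, given as descriptions. The genes named are the first 3 of 8473 ranked over the 28 cells, or of 7006 ranked over S1 to S17. The first of so many genes over so few cells can have a high correlation by the search alone, which was not tested. Neat1 was most like Snrk, a kinase related to the SNF1 family (0.90), Pls3, an actin-bundling plastin (0.88), and Akr1b3, an aldose reductase (0.87). None of the 3 was found in S18 to S28. S1 to S17 are 17 of the 28 cells, so the rankings over the 28 and over the 17 share data. Within S1 to S17 the genes most like Neat1 were Efr3a (0.84), Drg1 (0.83) and Ipo8 (0.82), none of which is among the first 3. For Malat1 the first genes over 28 cells were Hn1l (0.72), the metallothionein gene Mt1 (0.67) and Taf13, a subunit of the general transcription factor TFIID (0.65). In S1 to S17 they were Abcb9, a lysosomal peptide transporter (0.86), Gm26703 (0.85) and Mt1 (0.83).

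For Meg3, the patch line MEG3 (0.79), Trmt61a, a transfer RNA methyltransferase gene (0.79), and R74862 (0.79) came first, and MEG3 is a copy of the same sequence. For Gas5 over the 28 cells, Gm20498 (0.70), Paip1, a partner of the poly(A)-binding protein (0.69), and Fbxo45 (0.63) came first, and within S1 to S17 Fdx1 (0.80), Clta (0.75) and Dnaja1 (0.75). For Snhg1 these were Arhgap32 (0.76), Zfp292 (0.76) and Serp1 (0.75), and within S1 to S17 Zfp292 (0.87), Mesdc2 (0.84) and Dhrs7 (0.82). For Snhg11 they were Zfp282 (0.75), Usp12 (0.72) and Pbld1 (0.72), and within S1 to S17 Ap1s3 (0.86), Sh3bp5l (0.86) and Synrg (0.85). Among the members themselves, Malat1 and Snhg11 had 0.77 within S1 to S17 but 0.31 over all 28 cells. Meg3 and Rian had 0.61 over 28 cells and 0.25 within S1 to S17. Malat1 and Neat1, neighbours on chromosome 19, had 0.26 within S1 to S17. Gas5 and Snhg1, both snoRNA hosts, had -0.39 there.

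Proteins that work with these RNAs were counted next, from lists of known partners. Their shares past 2-fold are read beside those of all symbols above 0, of which 12% were past 2-fold lower and 11.1% higher in the pools, or 18.6% and 12.1% of symbols with a mean FPKM of at least 1. Of 12 splicing factors of nuclear speckles, all were found in at least 1 cell, with a median of 19.5 cells, against 4 cells for all symbols above 0. Srsf3, a splicing factor of the SR family, had the highest mean and was found in 26 cells, and 3 of the 12, Srsf1 (-1.37), Srsf6 (-1.46) and Srrm1 (-2.22), were past 2-fold lower in the pools on the log2 scale and 0 higher. Srrm1 was 1915 FPKM in S18 against a median of 1.09 over the cells, so its cell mean rests largely on S18. All 10 paraspeckle proteins were found, in a median of 17 cells. Hnrnpk, which had the highest mean, and Sfpq were found in all 28 cells, including the 18 in which Neat1 was not. These 18 include all of S18 to S28, and the 2% limit was not applied to the cell counts of this paragraph. Pspc1 was found in 2 cells, and Pspc1 (-1.06), Tardbp (-1.19) and Rbmx (-1.64), 3 of the 10, were past 2-fold lower in the pools and 0 higher. The cell mean of Pspc1 rests largely on S6, at 269 FPKM against a median of 0. By themselves P1 (-0.09) and P3 (-0.37) were not past 2-fold for Pspc1. Nor were P2 (-0.95), P3 (-0.99) and P4 (-0.97) for Tardbp, P4 (-0.77) for Rbmx and P2 (-0.28) for Srsf1. Tardbp and Srsf6 were highest in S27, Rbmx in S23 and Srsf1 in S24, all in the 2 library sets. Ratios without S18 to S28 were not computed for these or the later lists.

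Factors of the snoRNA hosts were found in fewer cells. The 8 nonsense-mediated decay factors had a median of 6 cells, with Upf3a the highest by mean and found in 12 cells, Smg6 (-2.14) past 2-fold lower in the pools and Smg1 (1.22) past 2-fold higher. Smg6 was 276 FPKM in S28 against a median of 0.0585 over the cells, so its cell mean rests largely on S28. The 4 C/D box proteins had a median of 11 cells, with Nhp2l1, now Snu13, the highest and found in 20, and Nop56 (1.98) past 2-fold higher in the pools. The 4 H/ACA box proteins had a median of 9.5 cells, with Dkc1 found in 13 and Nop10 (-1.48) past 2-fold lower in the pools. The cell mean of Nop10 rests largely on S20, at 911 FPKM against a median of 0, and P1 (-0.99) was not past 2-fold by itself. Of 16 other snoRNA host genes 12 were in the table, and they were found in a median of 3.5 cells. Snhg5 was the highest, at 4926 FPKM in S26, and was found in 14 cells, or 9 under the 2% limit. Of the 12, 2 were past 2-fold lower in the pools, Snhg5 (-2.65) and Snhg6 (-1.49), and 3 were past 2-fold higher, Snhg4 (1.20), Snhg7 (1.24) and Snhg12 (1.33). All 4 pools lay below the cells for Snhg5 and Snhg6, but for Snhg6 only P2 (-2.79) and P3 (-4.51) were past 2-fold by themselves. The pools lay on both sides of the cells for Snhg4, Snhg7, Snhg12, Smg1 and Nop56. Gas5, found in 22 cells, was thus found in more cells than any of these 12.

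Of 4 proteins reported to bind Miat, Qk, an RNA-binding protein of glia, had the highest mean and was found in 22 cells. Celf3, an RNA-binding protein of neurons, was found in 5 cells, none of them in S1 to S17, and in 3 under the 2% limit, and had a log2 ratio of -3.61, and Srsf1, counted above, is the other of the 4 past 2-fold lower. Among 12 other brain long noncoding RNAs, 9 were in the table. Pantr1 (listed as 2610017I09Rik) had the highest mean, was found in 11 cells, 1 of them in S1 to S17, and in 7 under the 2% limit, and reached 1759 FPKM in S27. Its ratio was -1.73, with the pools on both sides of the cells. Dlx6os1 (-6.99) and the host gene of Mir124a-1 (listed as A930011O12Rik, -2.35) were lower in all 4 pools and listed at 0 there. Epb41l4aos (listed as 2410004N09Rik, 1.59) was higher in all 4, but P1 (0.79) and P3 (0.33) were not past 2-fold by themselves. Dleu2 (1.88) was past 2-fold higher with P3 below the cells.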

How the data were processed

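RNA of 28 single cells and 4 pools of 10 cells was sequenced. The submitters' processing notes name TopHat 1.41, Cufflinks 2.02 and the build mm9. The authors deposited 1 table with an FPKM value per gene and library. By gene ID, 96.0% of the lines were matched to GENCODE M21, of which 99.7% lay on the same gene of GRCm38, so positions are stated for GRCm38 and not for mm9. The sources used here do not state the annotation release, the read layout or the strand setting. Total counts are not in the table, so depth is only roughly known: the value of a single fragment could be read in 18 libraries, none of them in S18 to S28, and gave 6240000 to 21100000 fragments for an assumed fragment of 200 bases. For 27 lines a symbol turned into a date was restored, and lines of 1 symbol were summed.

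The members and gene lists were chosen with earlier results of these data known. Found means FPKM of at least 1, log2 ratios use a pseudocount of 1, and intervals of shares are exact Clopper-Pearson 95% intervals. A cell is led by the marker list with the highest mean log2(FPKM + 1). Overlap of lines was taken from their loci, and a line was a small RNA by its annotated type or, where none matched, a length under 200 bases. For likeness, the 3 genes with the highest Spearman correlation were named for members found in at least 5 cells, leaving out small RNAs and pseudogenes, over 28 cells and over S1 to S17 where at least 5 of these had the member. In each list, the gene with the highest mean and those past 2-fold with all 4 pools on 1 side were named. For each member the small RNA line with the highest mean was named, and the other small RNA lines named, and Sfpq, Gm20417, Snhg4, Snhg7, Snhg12, Smg1, Nop56 and Dleu2, were chosen after their values were seen. The alternatives were other limits, pseudocounts, scalings, sets of libraries and lines. The log2 ratio and the ranking by Spearman correlation were tested with changes planted in deposited values shuffled within each gene. The other computations were not tested in this way. Python 3.11.15, pandas 2.3.3, numpy 2.4.6 and scipy 1.17.1 were used. No doublet caller was run.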

Additional observations from a re-analysis of the deposited data

Results flagged for a closer look

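Among the 4 pools, Miat was flagged in P4: its gap to the nearest of the other pools, divided by the range of the pools, was 1, above Dixon's critical value for 4 samples at the 95% level. With P1, P2 and P3 all listed at 0, any value above 0 in P4 gives 1, so this outcome was fixed in advance. The level behind it was 0.00586 FPKM in P4 against 0 in P1, P2 and P3, far under the limit of 1 FPKM used for found. Miat was the 1 such case among the 8 members with a value above 0 in the pools. The usual rate of about 1 in 20 groups flagged by chance does not hold for values tied at 0.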

How the results depend on the processing

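No paired analysis was possible because the cells and pools share numbers only as names and no result comes from a test. The median number of members found per cell was 3 in the deposited values, 5 at a limit of 0.1 FPKM and 7 when any value above 0 counted, and within the spread over cells (SD 1.10) in each of the other 7 settings. The number of members past 2-fold was 3, and it was 5 with a pseudocount of 0.1, 5 with upper quartile scaling, 1 without S18 to S28 and 2 to 4 with 1 pool left out. With means of log values it was 4, all higher in the pools, against 3 that were all lower. The share of all symbols past 2-fold was not computed for these alternatives, so their counts have no background beside them. The ratio turned direction for Meg3 (0.74), Gas5 (2.30), Snhg1 (1.21) and Snhg11 (0.68) with means of log values, for Meg3 (0.14), Gas5 (0.56), Miat (0.0021), Neat1 (-0.42) and Malat1 (-0.08) without S18 to S28, for Snhg11 (0.12) when rescaled without small RNAs and for Malat1 (-1.54) with upper quartile scaling. The cause was not tested. For Miat the sign was fixed in advance, since every cell of S1 to S17 was at 0 and P4 was above 0. With the patch line added after the data were seen, Meg3 was in 8 cells, as before, and with the 2% limit, also applied to small RNA lines and markers after the data were seen, 17 in place of 21 pairs had both small RNA and host found. Rescaling without small RNAs left 2 members past 2-fold and moved the median of all symbols to 0.12 and means of log values moved it to 0.73. Of the values for single members, 145 stayed within the limits of the main value, 37 moved and 5 reversed, among them Miat without S18 to S28. Reversed counts a turned direction only for members past 2-fold in the deposited values. It is therefore not the number of turned ratios, which also include Snhg11, Malat1 and Neat1 with 1 pool left out. The 2 library sets, the unstated animals and exact values of 0 that may be failed estimates limit every statement above, and low values cannot be told from absence at an unknown depth.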
